A study of Mus musculus with 35 samples.

Results

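Hippocampal RNA of the inbred mouse strains A/J and C57BL/6J, all animals male, was compared on Illumina MouseRef-8 V1.1 bead arrays. The comparison took every array labelled hippocampus, 9 from A/J and 9 from C57BL/6J, which is 18 of the 35 arrays of the series. The other 17 arrays hold amygdala, 8 from A/J and 9 from C57BL/6J, and are used only where a hippocampus value is set beside them. By the labels and the study's methods the mice were 3 to 4 months old and naive to testing, were bred in house from Jackson Laboratory pairs, and the RNA came from needle punches of the left hippocampus in frozen sections. No treatment is named for either strain. The labels give no litter or cage and do not tie hippocampus and amygdala arrays to animals, so p-values measure the spread between these arrays, and arrays of both regions enter a joint fit as separate samples.

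The hippocampus is a limbic structure that encodes new memories of places and events. Its excitatory circuit runs from the granule cells of the dentate gyrus to the pyramidal cells of the CA3 and CA1 fields. A/J and C57BL/6J are inbred strains, so animals of 1 strain are nearly identical in sequence while the strains differ from each other at many bases. On a bead array, each bead type carries 1 probe, a single long DNA strand, and its signal follows both how much transcript is present and how well that transcript pairs with the probe. The array was designed on C57BL/6J sequence. An A/J transcript that differs from the probe can therefore give less signal without being less abundant, and a probe's strain difference is reported here as a difference of signal.

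For 15 of the probes below, the study sequenced the probe's target in both strains. It chose them among probes with no listed polymorphism and a large strain difference on these arrays, so their differences are descriptions. Substitutions were read in 8 of the 15, a deletion in the Psmd8 probe, an insertion in the Msmo1 probe, no difference in the Chchd4 probe, and no readable result for the Csrp1, Manbal, Thumpd1 and Supt16 probes. The windows that follow are 29 bases of the 50-base probe, 5′ to 3′, with the differing base in capitals, and are shown because these probes lie among the largest strain differences of the hippocampus. Positions count from 1 at the 5′ end of the probe, and the C57BL/6J base stands first. The Gdi3 probe held A29G, the Srp9 probe C34T, the Enpp5 probe A25G and C41T, and the Abhd16a probe C41A and T43G.
Gdi3, C57BL/6J: tgcaatgcagtattAatctgacagagcct
Gdi3, A/J: tgcaatgcagtattGatctgacagagcct
Srp9, C57BL/6J: ctcagtgtggctccCgcctcagactgaat
Srp9, A/J: ctcagtgtggctccTgcctcagactgaat
Enpp5, C57BL/6J: tggatgAgtctagtcctgactcCgtgatg
Enpp5, A/J: tggatgGgtctagtcctgactcTgtgatg
Abhd16a, C57BL/6J: tgctgtttatagtctggccCgTggggaca
Abhd16a, A/J: tgctgtttatagtctggccAgGggggaca

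Levels are log2 signals after normexp background correction with an offset of 16 and quantile normalisation over the 18 arrays. A probe counted as detected on an array when its detection p was under 0.01, and 8578 probes (34.8% of the 24620 on the array) were detected on 9 or more of the 18 arrays and tested. They name 6795 genes. An array detected 6312 to 10722 probes in A/J (median 9506) and 6099 to 9239 in C57BL/6J (median 8696), and the means did not differ beyond their spread (difference 495, two-sided exact permutation p = 0.464, n = 9 and 9). The first principal component of the tested levels took up 46.1% of the variance and tracked the detected probe number (Pearson's r = -0.952 over the 18 arrays, a description), with both strains spread along it. The second held 15.4%, and on it A/J arrays lay from -3.36 to 31.3 and C57BL/6J arrays from -27.8 to 4.24. No pair of arrays held identical values. Of the neuronal markers of the hippocampus, 12 of 16 were tested, and Hpca, Camk2a, Slc17a7, Nrgn and Zbtb20 were detected on all 18 arrays, while Neurod6 and Emx2 were detected on none. The dentate gyrus markers Prox1 and C1ql2 and the CA1 marker Fibcd1 were also detected on all 18. In the same lists, 6 dentate gyrus markers, Calb1 and Tdo2 among them, and the CA1 marker Man1a were detected on none.

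Far more probes were lower in A/J than higher. With limma and Benjamini-Hochberg adjustment over the 8578 probes, 269 probes (3.14%) passed an adjusted p of 0.01, of which 66 (0.769%) were higher in A/J and 203 (2.37%) lower. The lower side thus held 75.5% of the calls. It held 87.9% of the calls of at least 2 log2 units (51 lower, 7 higher) and 92.6% of those of at least 3 (25 lower, 2 higher). The median difference over all tested probes was 0.0293 log2, the median size of a difference was 0.157, and the smallest difference that passed was 0.551. In 169 probes (1.97%) every array of 1 strain lay above every array of the other, and 167 of these passed the test, 31 higher and 136 lower. A detection filter lets a probe in through 1 strain alone: 26 of the 269 were detected in 1 strain only and so had to differ, and without them 63 were higher and 180 lower. Just inside the filter 310 probes were detected on exactly 9 arrays, 36 of them called, and just outside it 311 were detected on 8 and not tested, among them the CA1 gene Lefty1 (0 A/J and 8 C57BL/6J arrays).

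**Figure D1:**
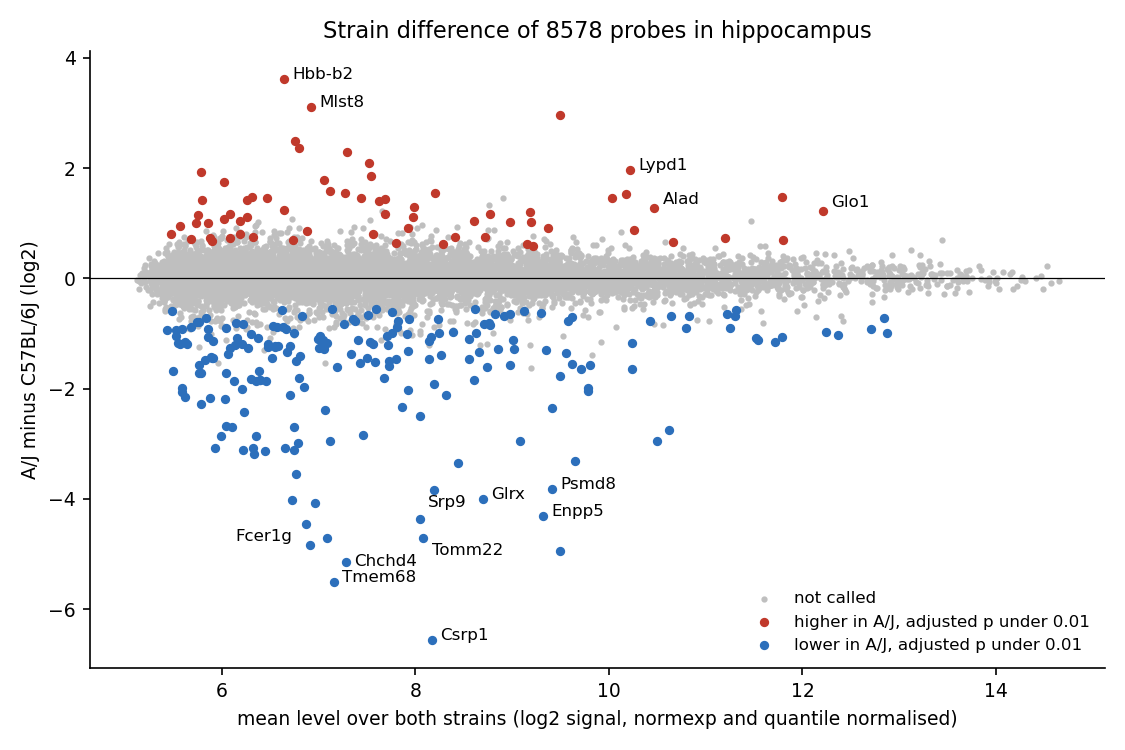
Each point is 1 of the 8578 tested probes, with its mean log2 level over both strains on the horizontal axis and A/J minus C57BL/6J in log2 on the vertical axis. Coloured points passed an adjusted p of 0.01, 66 above 0 and 203 below, and the points beyond 3 log2 units lie mostly below.

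The brightest probes seen in C57BL/6J alone are given first, 6 that were not detected on any A/J array. They entered the test only through C57BL/6J and so had to differ. Their adjusted p and the gaps between their ranges are therefore descriptions, as for every later probe that only the brighter strain detected. For such a probe the difference is given as a lower bound, the mean of the bright strain over the dim strain's mean, taken per array as the higher of the probe's own level and the lowest level of any detected probe. Csrp1, a LIM-domain protein of the actin cytoskeleton, ran from 10.57 to 12.2 on the C57BL/6J arrays (median 11.72) and from 4.52 to 5.39 on the A/J arrays (median 4.85). That is at least 58.8-fold lower in A/J, with no overlap (adjusted p = 8.79e-16, a description). The next was Tmem68, a transmembrane protein, at 9.32 to 10.63 (median 9.75) in C57BL/6J against 4.29 to 4.53 (median 4.43) in A/J, at least 20.2-fold lower (adjusted p = 2.92e-15). Chchd4, which carries out oxidative import of proteins into the mitochondrial intermembrane space, ran from 9.49 to 10.22 (median 9.82) in C57BL/6J and from 4.46 to 5.01 (median 4.65) in A/J, at least 19.3-fold lower (adjusted p = 4.48e-17). It is the sequenced probe in which no difference was found.

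Abhd16a, a phosphatidylserine hydrolase whose A/J bases are shown above, ran from 8.8 to 10.08 (median 9.52) in C57BL/6J and from 4.58 to 4.95 (median 4.74) in A/J, at least 14.6-fold lower (adjusted p = 6.27e-15). Fcer1g, the signalling chain of Fc receptors in microglia and other myeloid cells, ran from 8.63 to 10.45 (median 9.06) and from 4.38 to 4.61 (median 4.49), at least 13.5-fold lower (adjusted p = 2.05e-12). The probe of Prdx2, a peroxide-reducing enzyme, ran from 8.92 to 9.25 (median 9.09) and from 4.57 to 4.74 (median 4.66), at least 11.5-fold lower (adjusted p = 2.75e-18). In all of these the strains lay far apart, but a difference follows from how the probes were picked. The A/J arrays hold undetected values, so their narrow spread says little. Over the C57BL/6J arrays the SD ran from 0.118 for Prdx2 to 0.719 for Fcer1g. The array list of the study marks the Tmem68, Fcer1g and Prdx2 probes as holding a known strain polymorphism.

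In all, 23 probes were detected in every C57BL/6J animal and in no A/J animal, with bounds from 1.48-fold to 58.8-fold. Of these, 17 are in the study's Magenta list of strain-related probes, which was built on these arrays among others, and 9 carry a listed polymorphism. In the amygdala, 11 of the 23 were detected on 0 of 8 A/J and 9 of 9 C57BL/6J arrays too. The chemokine Ccl21, which draws lymphocytes and dendritic cells through Ccr7, had 3 such probes, for Ccl21a at least 5.12-fold lower in A/J (adjusted p = 9.15e-11) and for Ccl21b at least 6.14-fold and 4.61-fold lower (adjusted p = 1.1e-10 and 3.85e-08). The mouse genome holds near-identical Ccl21 copies, and their probes may share transcripts. The adjusted p of these 3 probes are descriptions too, as no A/J array detected them.

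The reverse pattern held for 3 probes. They entered the test only through A/J and so had to differ, and their adjusted p are descriptions. Hbb-b2, a beta globin of red blood cells, ran from 7.04 to 9.68 (median 8.41) in A/J and from 4.53 to 5.23 (median 4.79) in C57BL/6J, at least 6.97-fold higher in A/J (adjusted p = 2.93e-08). The strains are known to carry different haplotypes of the beta globin genes. The 3 other tested blood markers did not pass. A/J minus C57BL/6J was 0.20 ± 0.23 log2 (SE) for the alpha globin Hba-a1 (adjusted p = 0.895), 0.01 ± 0.29 for Alas2, of heme synthesis in red cells (adjusted p = 0.996), and -0.77 ± 0.24 for the beta globin Hbb-bt (adjusted p = 0.0778). The summed level of the blood list ran from 4860 to 17800 in A/J and from 4940 to 11400 in C57BL/6J, and its part in the Hbb-b2 difference was not tested. Trappc12, of the TRAPP vesicle tethering complex, ran from 6.14 to 7.12 (median 6.82) in A/J and 4.58 to 5.04 (median 4.88) in C57BL/6J, at least 2.14-fold higher (adjusted p = 1.84e-09). The zinc finger gene Zfp775 was at least 1.81-fold higher (adjusted p = 1.91e-06), at 6.04 to 7.11 (median 6.54) in A/J and 4.73 to 5.82 (median 5.05) in C57BL/6J.

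**Figure D2:**
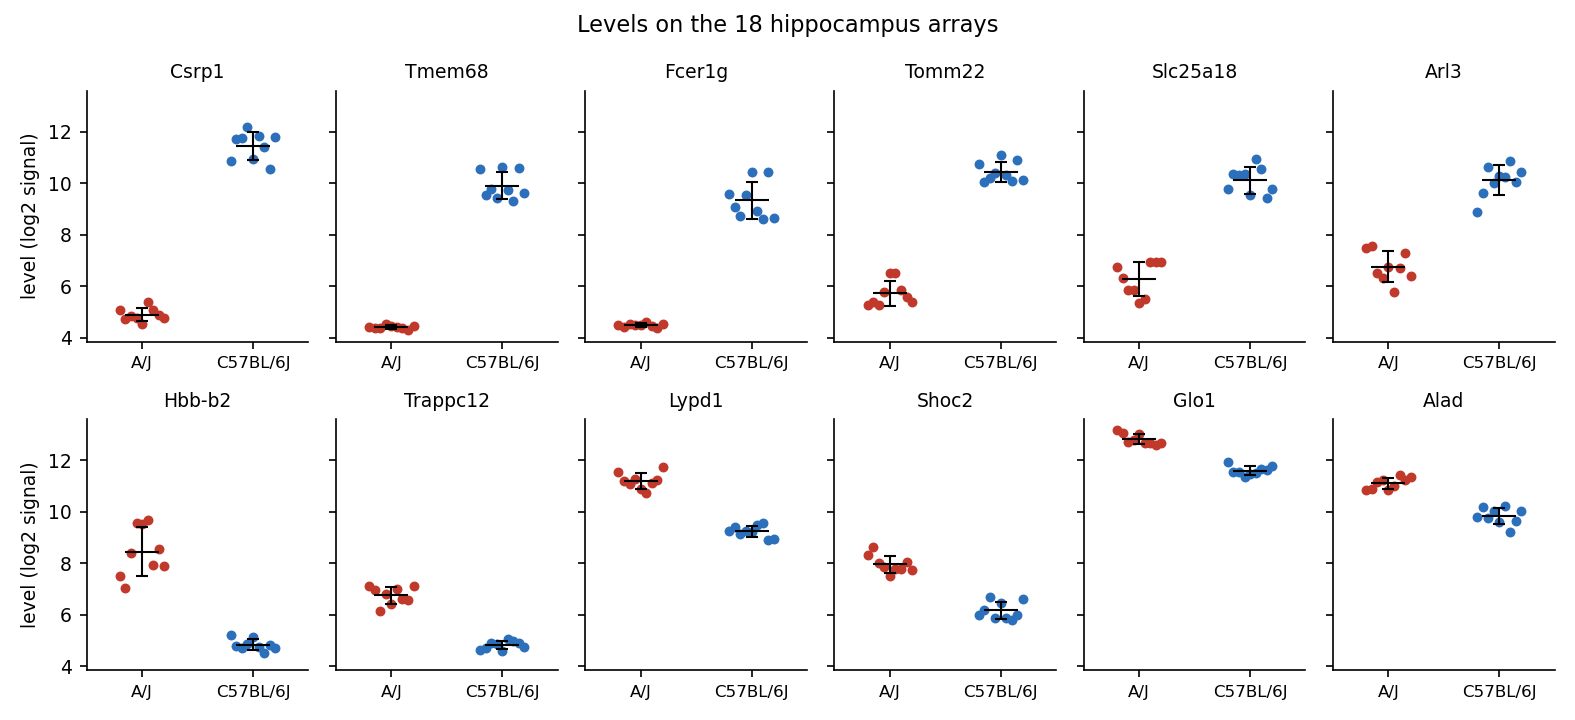
Levels of 12 named probes on each of the 18 hippocampus arrays in log2 signal, with the mean and SD per strain in black. In every panel the A/J and C57BL/6J points are apart, the first 6 lower in A/J and the last 6 higher.

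The 10 largest drops of signal in A/J were taken among called probes with ranges apart that were detected on 5 or more arrays of each strain. The largest belonged to the probe that the study lists as Gdi3, a regulator that takes Rab GTPases off membranes. It ran from 6.39 to 7.52 in A/J (median 7.07) and from 11.47 to 12.52 in C57BL/6J (median 11.91), a difference of -4.94 ± 0.18 log2 (SE, adjusted p = 1.99e-14). Tomm22, the central receptor of the mitochondrial outer membrane translocase, was lower by 4.71 ± 0.20 (5.26 to 6.51, median 5.58, against 10.06 to 11.1, median 10.34, adjusted p = 4.06e-13), although 7 of 9 A/J arrays detected it. Srp9, a protein of the signal recognition particle, ran from 5.16 to 6.31 (median 5.9) in A/J and 10.02 to 10.47 (median 10.23) in C57BL/6J (-4.36 ± 0.14, adjusted p = 1.59e-15). Enpp5, a membrane glycoprotein of the nucleotide pyrophosphatase family, ran from 6.63 to 7.93 (median 7.04) and from 11.23 to 11.65 (median 11.46), a difference of -4.31 ± 0.16 (adjusted p = 1.99e-14). The choice of probes required ranges apart in all 4. The Gdi3, Srp9 and Enpp5 probes carry the substitutions printed above, and the study lists a known polymorphism in the Tomm22 probe.

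Glrx, a glutaredoxin that removes glutathione from protein thiols, was lower by 3.99 ± 0.20 (6.09 to 7.53, median 6.63, against 10.2 to 11.2, median 10.53, adjusted p = 6.34e-12), and its probe held A32G and G38A. Slc25a18, a mitochondrial glutamate carrier of astrocytes, ran from 5.34 to 6.96 (median 6.31) in A/J and 9.43 to 10.95 (median 10.34) in C57BL/6J (-3.84 ± 0.26, adjusted p = 8.14e-10). Psmd8, a lid subunit of the 26S proteasome, ran from 7.22 to 7.64 (median 7.57) and 11 to 11.68 (median 11.35), a difference of -3.81 ± 0.11 (adjusted p = 8.79e-16). The remaining 3 were Arl3, a small GTPase of ciliary traffic (-3.35 ± 0.26, adjusted p = 7.24e-09), the probe listed by the study as Cox7a2l, a protein of respiratory supercomplexes (-3.31 ± 0.17, adjusted p = 6.54e-12), and Msmo1, a sterol oxidase of cholesterol synthesis (-2.95 ± 0.16, adjusted p = 1.74e-11). All 10 are in the Magenta list, and the study lists a known polymorphism in the Slc25a18, Arl3 and Cox7a2l probes. Each of the 10 thus has a listed or sequenced strain difference in its probe.

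Under the same limit of 5 or more detected arrays in each strain, the 10 largest rises in A/J with ranges apart were smaller. The first was the probe listed by the study as H2afz, the histone variant H2A.Z, at 10.65 to 11.36 (median 10.93) in A/J and 7.14 to 8.75 (median 8.17) in C57BL/6J (2.96 ± 0.24, adjusted p = 1.04e-08). Lypd1, a Ly6-family protein that binds nicotinic acetylcholine receptors, ran from 10.72 to 11.72 (median 11.21) and from 8.91 to 9.56 (median 9.24), a difference of 1.96 ± 0.14 (adjusted p = 1.84e-09). Shoc2, a scaffold of Ras signalling, was higher by 1.79 ± 0.17 (7.51 to 8.62, median 7.84, against 5.81 to 6.7, median 6, adjusted p = 1.14e-07). The choice of probes required the lowest A/J array to lie above the highest C57BL/6J array in each gene. Scg5, the chaperone 7B2 that activates the prohormone convertase PC2, ran from 11.83 to 13.07 (median 12.59) and from 10.78 to 11.45 (median 10.95), a difference of 1.48 ± 0.16 (adjusted p = 1.67e-06).

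The others were Rsph1, a radial spoke protein of motile cilia (1.59 ± 0.21, adjusted p = 2.07e-05), Hddc3, a nucleotide hydrolase (1.55 ± 0.14, adjusted p = 6.81e-08), Cap1, an actin regulator (1.53 ± 0.23, adjusted p = 1.13e-04), and 3 probes with no gene symbol, at 2.30 ± 0.24, 2.09 ± 0.22 and 1.48 ± 0.15 (adjusted p = 7.62e-07, 7.28e-07 and 3.55e-07). In all, 34 of the 269 called probes have no gene symbol in the annotation used. The Cap1 arrays of C57BL/6J spread from 8.14 to 10.44, all below those of A/J at 10.7 to 11.18.

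Genes with known strain alleles were set out as a list of 17, of which 4 were tested and 3 passed, all higher in A/J. Of the 17, 9 were detected on no array. Over all probes 3.14% were called, but this list was chosen for known strain alleles, so its share is a description. Glo1, the glyoxalase that detoxifies methylglyoxal and lies in a segment duplicated in A/J and some other strains, ran from 12.6 to 13.16 in A/J (median 12.7) and from 11.35 to 11.95 in C57BL/6J (median 11.54). The ranges did not overlap and the difference was 1.22 ± 0.12, or 2.33-fold (adjusted p = 1.78e-07). Btbd9, which the same segment can include, was detected on 6 of 9 arrays of each strain and stood at 0.00 ± 0.61 (adjusted p = 1), with ranges of 4.54 to 8.23 and 4.72 to 8.47, so wide that little can be said of its strain difference. Alad, the porphobilinogen synthase of heme synthesis, whose copy number is known to differ between inbred strains, ran from 10.84 to 11.43 (median 11.17) in A/J and 9.21 to 10.21 (median 9.81) in C57BL/6J, a difference of 1.28 ± 0.14, or 2.43-fold (adjusted p = 1.8e-06). Hbb-b2, given above, was the third, and it had to differ because only A/J arrays detected it. Of the 18 tested genes of the glyoxalase and glutathione list, Glo1 was the 1 called higher and Glrx the 1 called lower (11.1%, beside 3.14% of all probes). Of the 18, 12 were above 0 and 6 below. Hagh, the enzyme after Glo1 in the same pathway, was at -0.32 ± 0.18 (adjusted p = 0.56).

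**Figure D3:**
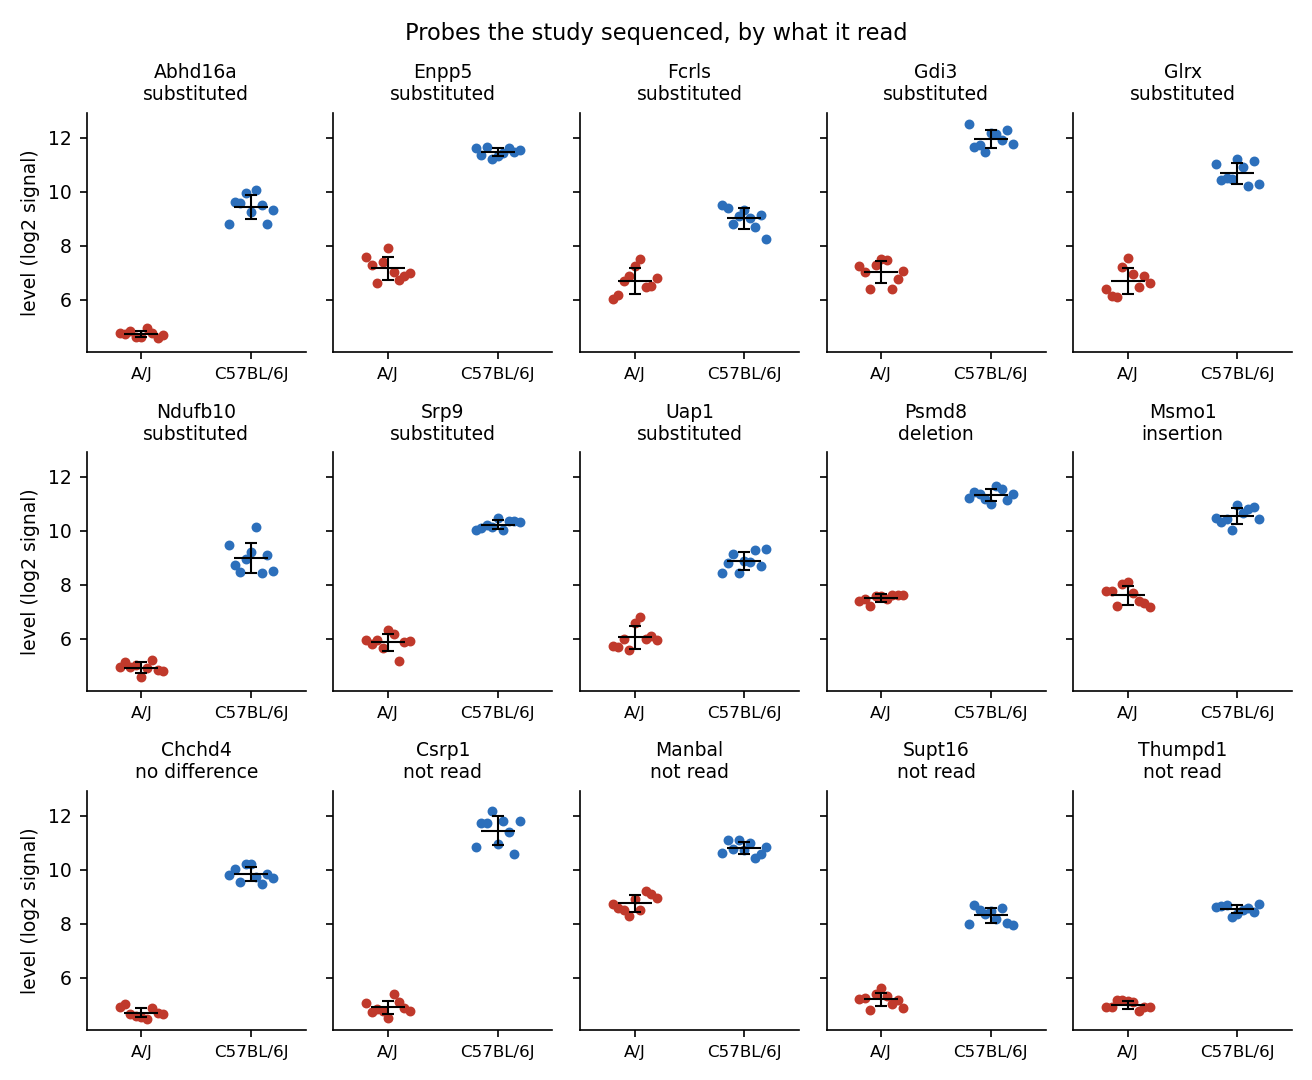
Levels of the 15 probes the study sequenced, in log2 signal on each hippocampus array, with the mean and SD per strain in black and the reading of the target in the panel title. A/J lies below C57BL/6J with no overlap in every panel, those without a reported difference included.

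Signal was also set beside what the study lists for each probe. In the Magenta list, 76 probes were tested. Of its 32 probes with a listed polymorphism 31 were lower in A/J and 0 higher (median difference -2.38), and of its 44 with none listed 34 were lower and 8 higher (median -1.82). The 44 include the sequenced probes, most of which were read with a strain difference, so they are not probes free of one. The list was chosen on these samples for its strain pattern, so these counts are a description and not independent evidence. In the Pink list 84 probes were tested and 1 was called, higher in A/J. In the Red list 180 were tested, with 4 higher and 2 lower. Those lists follow brain region, and their probes were called at 1.19% and 3.33% against the 3.14% of all probes. After the probes with a listed or sequenced difference were left out, 66 probes were higher and 154 lower in the 8532 that remained, so the lower side held 70% of the calls. Polymorphisms are listed only for probes of the Magenta, Pink and Red lists, and most of the remaining probes were never checked for one. This share is therefore not that of probes free of a strain polymorphism.

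Several probes of 1 gene did not always move together. Of 742 genes with more than 1 tested probe, 714 had no call, 5 had a call in every probe, 23 had calls in some only, and no gene had calls in opposite directions. Mlst8, a shared subunit of the mTOR complexes, had a probe at 7.3 to 9.57 in A/J (median 8.24) and 4.76 to 5.81 in C57BL/6J (median 5.34), a difference of 3.11 ± 0.28 (adjusted p = 6.42e-08), with 3 of 9 C57BL/6J arrays detecting it. Its other probe ran from 9.24 to 9.72 and from 9.31 to 9.99, a difference of -0.13 ± 0.12 (adjusted p = 0.838). The gene as a whole therefore has no single strain difference here. Supt16, a histone chaperone subunit, had a probe at -3.11 ± 0.14 (adjusted p = 7.28e-13, detected on 2 of 9 A/J arrays, and listed by the study as Rpgrip1) and another at 0.09 ± 0.23 (adjusted p = 0.964).

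Insig2, a retainer of sterol-sensing proteins in the endoplasmic reticulum, had probes at -2.69 ± 0.25 (adjusted p = 1.12e-07) and 0.40 ± 0.20 (adjusted p = 0.434). Klc1, a kinesin light chain of axonal transport, had probes at -2.75 ± 0.20 (adjusted p = 3.42e-09), -1.08 ± 0.22 (adjusted p = 0.00341) and -0.02 ± 0.35 (adjusted p = 0.996), the first with a listed polymorphism. Cldn10, a tight junction claudin of astrocytes and other cells, had 1 probe with a listed polymorphism at -1.56 ± 0.20 (adjusted p = 1.06e-05) and 2 others at 0.10 ± 0.18 and 0.39 ± 0.23 (adjusted p = 0.944 and 0.596). Prdx2 fell in both probes, by 1.58 ± 0.16 in the one without a listed polymorphism (adjusted p = 5.22e-07).

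Most gene lists of hippocampal cell types and synaptic functions held 0 to 2 called genes. A gene with several tested probes entered its list through the brightest one. Of the hippocampal glutamatergic neuron list 0 of 12 tested genes passed (median difference 0.0954), of the dentate gyrus list 0 of 5 (median -0.204, but 0.242 on the chips with both strains), and of the astrocyte list 0 of 9 (median -0.17, the lower Cldn10 probe not being the brightest of its gene), beside 3.14% called and a median of 0.0293 over all probes. The same 0 held for 14 oligodendrocyte genes, 7 ionotropic and metabotropic glutamate receptors, 3 GABA receptors, 19 kinases and phosphatases of synaptic plasticity, 6 monoamine and acetylcholine receptors and 6 genes of the stress hormone axis. The oligodendrocyte list had a median of -0.259, with 10 genes below 0 and 4 above, and -0.133 on the chips with both strains. At 9 arrays per strain a difference of 1 log2 unit was recovered for 60% of simulated probes, so a smaller difference can have been missed in these genes. Bdnf, Nr3c1, Grin2a, Grin2b and Creb1 were detected on none of the 18 arrays, so they were not compared.

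**Figure D4:**
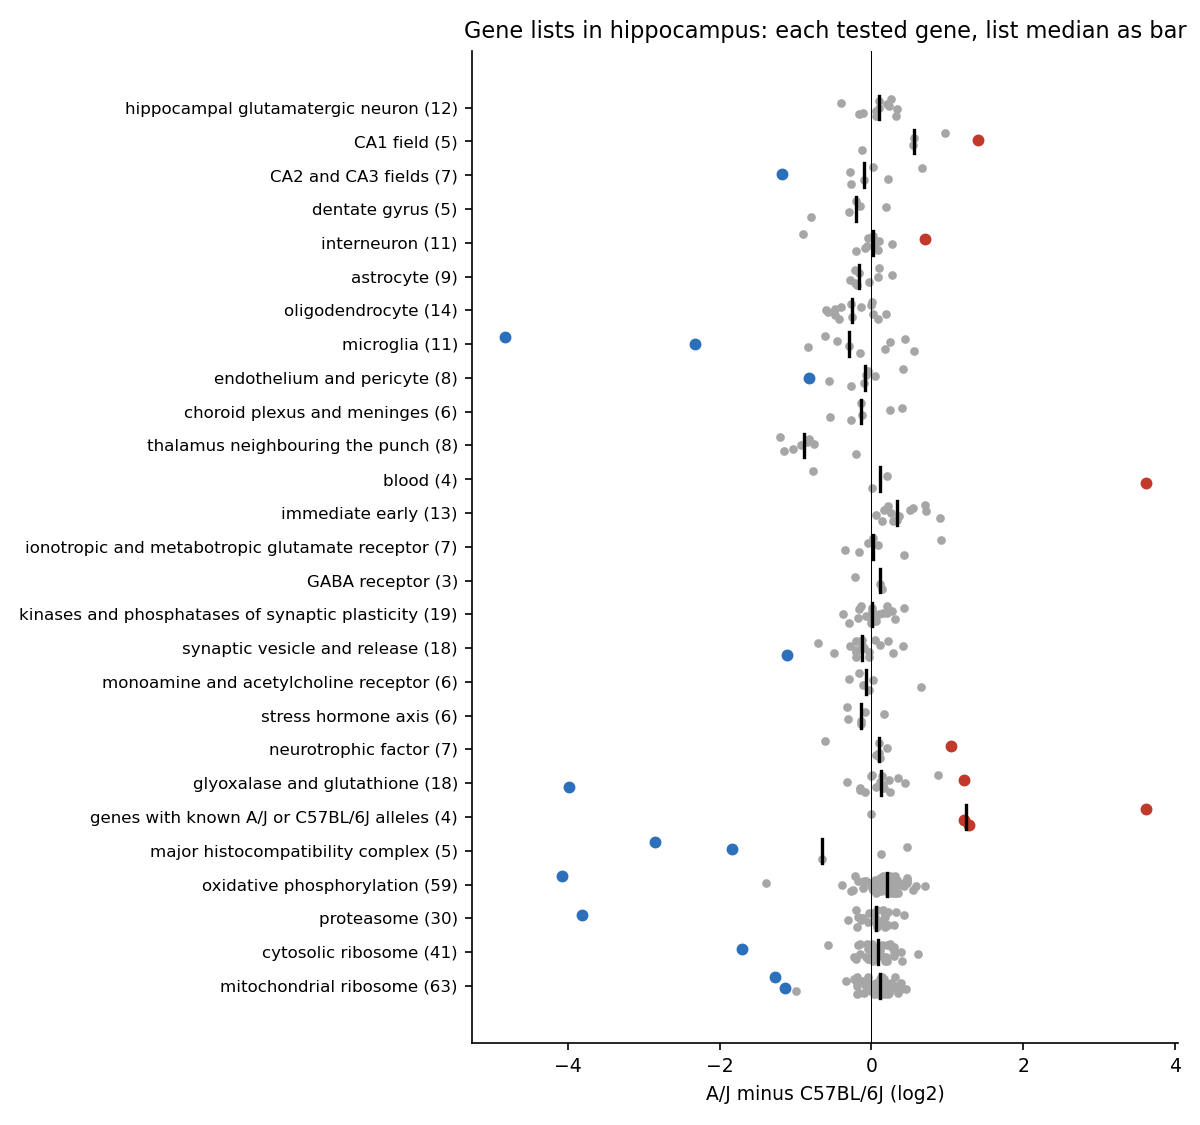
A/J minus C57BL/6J in log2 for each tested gene of 27 lists (number tested in parentheses), with the list median as a black bar and called genes in colour. Most medians lie near 0, those of the thalamus list (-0.888) and of the immediate early list (0.336) away from it with no gene called.

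The called genes of the field and cell type lists were few. Wfs1, which encodes wolframin and marks CA1 pyramidal cells, ran from 6.8 to 9.46 (median 8.35) in A/J and 5.84 to 7.82 (median 7.14) in C57BL/6J, a difference of 1.41 ± 0.32 (adjusted p = 0.00817), with overlapping ranges. On the chips that held both strains it was 0.594 (adjusted p = 0.774), and the call was lost in 15 of 18 fits that left out 1 array (adjusted p from 0.000851 to 0.0207). The other tested CA1 genes did not pass, at 0.97 ± 0.47 for Pou3f1, 0.56 ± 0.40 for Fibcd1, 0.55 ± 0.24 for Mpped1 and -0.13 ± 0.30 for Dcn. Of the CA2 and CA3 list, Iyd, the iodotyrosine deiodinase, fell by 1.18 ± 0.17 (adjusted p = 4.49e-05) and the 6 other tested genes did not pass. Cck, the neuropeptide cholecystokinin of interneurons and many pyramidal cells, rose by 0.70 ± 0.15 (11.83 to 12.44, median 12.19, against 11.03 to 11.99, median 11.32, adjusted p = 0.00508), while the 10 other tested interneuron genes did not pass, from -0.90 for Cort (adjusted p = 0.254) to 0.27 for Sst (adjusted p = 0.699). The Cck call was lost in 10 of 18 fits without 1 array (adjusted p from 0.00164 to 0.0126).

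In the microglia list, 2 of 11 tested genes passed (18.2%, beside 3.14% of all probes), both lower in A/J. They were Fcer1g, given above, and Fcrls, an Fc receptor-like scavenger receptor of microglia, at 6.01 to 7.52 (median 6.68) in A/J and 8.26 to 9.5 (median 9.09) in C57BL/6J (-2.33 ± 0.20, adjusted p = 4.19e-08), whose probe held G9A. The Fcer1g probe holds a listed polymorphism, and it had to differ because only C57BL/6J arrays detected it. Tyrobp, a related adaptor of the same cells, was at -0.30 ± 0.29 (adjusted p = 0.849), Trem2 at 0.45 ± 0.25 (adjusted p = 0.558), Laptm5 at 0.56 ± 0.16 (adjusted p = 0.06) and C1qb at -0.83 ± 0.21 (adjusted p = 0.0236). Of the 11 tested genes, 4 were above 0 and 7 below. In punches of mixed cells, fewer cells of a type, less RNA per cell and weaker pairing with the probe cannot be told apart. The summed level of the list ran from 2790 to 4550 in A/J and from 3670 to 6200 in C57BL/6J, and P2ry12 and Itgam were detected on no array. Vwf of endothelium fell by 0.82 ± 0.19 (adjusted p = 0.00851, lost in 14 of 18 fits without 1 array, up to 0.0214) and stood at -0.448 on the chips with both strains (adjusted p = 0.678), beside 7 other tested endothelial and pericyte genes that did not pass.

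Markers of tissue next to the punch and of neuronal activity held no call. Of 8 tested genes of the thalamus list none passed, yet all 8 were below 0, from -1.21 ± 0.39 for Rora (adjusted p = 0.0974) to -0.20 ± 0.31 for Calb2, with a median of -0.888 against 0.0293 for all probes. Tcf7l2, a thalamic transcription factor, was at -1.16 ± 0.27 (adjusted p = 0.0113) and Prkcd at -1.04 ± 0.32 (adjusted p = 0.0746). The summed level of the list was 3090 to 9680 in A/J and 4710 to 15500 in C57BL/6J, with wide overlap, and the part of such tissue in the strain differences was not tested. The choroid plexus and meninges list had 0 of 6 called (median -0.133, and 0.44 on the chips with both strains), with summed levels of 1800 to 16100 and 2250 to 7020. The 13 tested immediate early genes, which neurons switch on with activity, were all above 0 and none passed, with a median of 0.336. Fos was at 0.91 ± 0.33 (adjusted p = 0.178), Egr4 at 0.72 ± 0.28 (adjusted p = 0.236), Egr1 at 0.71 ± 0.40 (adjusted p = 0.558) and Arc at 0.28 ± 0.21 (adjusted p = 0.738).

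The lists of cell machinery held 1 or 2 called genes each, which is 1.69% of the tested oxidative phosphorylation genes, 3.33% of the proteasome genes, 3.17% of the mitochondrial ribosome genes and 2.44% of the cytosolic ribosome genes, shares near or below the 3.14% of all probes. Of 59 tested genes of oxidative phosphorylation, Ndufb10, a complex I subunit, was the 1 called. It ran from 4.58 to 5.23 (median 4.94) in A/J, with 1 of 9 arrays detecting it, and from 8.45 to 10.15 (median 8.95) in C57BL/6J (-4.08 ± 0.19, adjusted p = 1.96e-12). Its probe held G22A, and the 9 C57BL/6J arrays alone met the filter, so these values are a description. The median of the list was 0.203, beside 0.0293 over all probes, with 47 genes above 0 and 12 below. Psmd8 was the 1 of 30 proteasome genes (list median 0.0645), and Mrpl27 (-1.27 ± 0.15, adjusted p = 3.17e-06) and Mrps12 (-1.15 ± 0.21, adjusted p = 0.00107) the 2 of 63 mitochondrial ribosome genes (median 0.11). The study read a deletion in the Psmd8 probe and lists a known polymorphism in the Mrps12 probe. Rpl29 was the 1 of 41 cytosolic ribosome genes, at -1.71 ± 0.38 (adjusted p = 0.00686, lost in 15 of 18 fits without 1 array, up to 0.0172), with C57BL/6J arrays from 4.81 to 8.27 that span those of A/J (4.88 to 5.37). Ribosomal protein genes have many near-identical copies, which makes that value uncertain. Sv2a, the synaptic vesicle protein bound by levetiracetam, was the 1 of 18 vesicle and release genes called, at 10.32 to 11.38 (median 11.02) in A/J and 11.52 to 12.53 (median 12.21) in C57BL/6J (-1.11 ± 0.16, adjusted p = 6.99e-05).

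In the major histocompatibility complex list, whose strain haplotypes differ, 31 members have probes and 5 were tested. H2-T22, a nonclassical class I gene, ran from 6.98 to 7.89 (median 7.46) in C57BL/6J and was undetected in A/J. It was at least 3.6-fold lower (adjusted p = 7.28e-13), a description, as it entered the test through C57BL/6J alone. H2-T9 was lower by 1.84 ± 0.18 (4.76 to 6.07, median 5.45, against 6.88 to 7.7, median 7.27, adjusted p = 3.01e-07). The class I H2-T genes are near-identical copies, so their probes may share transcripts. H2-D1, seen on 6 A/J arrays and on none of C57BL/6J, fell short of the filter. Of 105 tested zinc finger genes 4 passed (3.81%, near the 3.14% of all probes), Zfp775 and Zfp324 higher in A/J and Zfp870 and Zfp871 lower. Zfp871 and Zfp870 are next to each other among the tested genes of chromosome 17 in the RefSeq order, with Cyp4f14 after them also lower.

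The called probes were spread over the genome. By the chromosomes of RefSeq's GRCm38.p6 table, the share of tested probes called was highest on chromosome 1 (5.4% of 389) and chromosome 17 (4.75% of 379) and lowest on the X chromosome (0.459% of 218) and chromosome 10 (0.58% of 345). Between 2.56% and 3.68% of probes were called in 4 equal groups of mean level, so calls were not gathered at low or high signal. Of the 217 called genes that have a next tested gene on their chromosome, this neighbour was called too in 16 (7.37%), against 3.04% where the first gene was not called. Both genes of such a pair moved the same way in 12 of the 16. Some pairs are members of the same gene family, such as Ccl27a with Ccl21b, Nat8f4 with Nat8f1 and Zfp871 with Zfp870. Probes of such genes may share transcripts, so these pairs may not be independent. The longest runs were 3 genes long, among them Aste1, Atp2c1 and Ppm1m on chromosome 9, all lower in A/J.

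Strain differences of the hippocampus were mostly shared with the amygdala. In 1 fit of all 35 arrays over the same probes, 300 were called in hippocampus (3.5%) and 357 in amygdala (4.16%). Of the 269 hippocampus calls, 200 (74.3%) were called in the same direction in the amygdala, which is 56% of the amygdala calls, and 1 in the opposite direction. Another 58 had the same sign without passing there, and 10 the opposite sign. Glo1, for example, was 1.51 ± 0.11 higher in A/J amygdala (adjusted p = 1.27e-13), and its difference between regions was -0.29 ± 0.15 (adjusted p = 0.612).

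**Figure D5:**
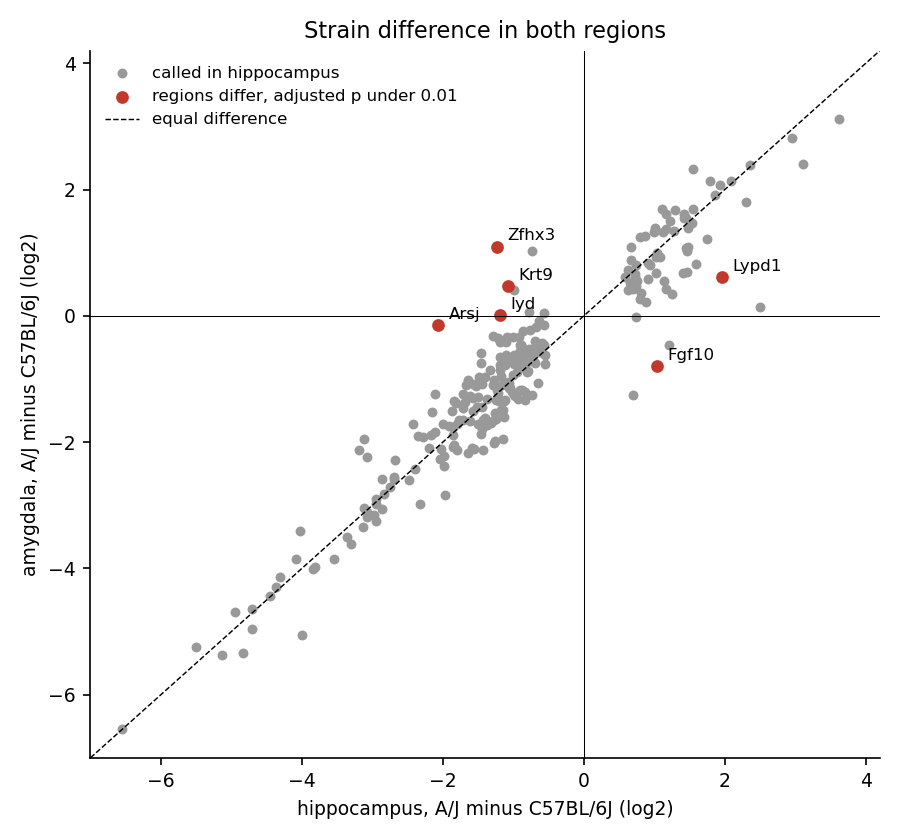
A/J minus C57BL/6J in log2 for the 269 probes called in hippocampus, with hippocampus (fit of 18 arrays) on the horizontal axis and amygdala (fit of 35 arrays) on the vertical axis, and the line of equal difference dashed. Most points follow the line, and the 6 red points have a strain difference that differs between the regions.

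The strain difference itself differed between the regions in 6 probes (0.0699%) at an adjusted p of 0.01 for the interaction. Arsj, an arylsulfatase, ran from 5.84 to 7.43 (median 6.66) in C57BL/6J hippocampus and was detected on no A/J hippocampus array and on no amygdala array of either strain, so its fitted interaction of -1.99 ± 0.20 (adjusted p = 6.18e-08) rests on 1 group alone. Iyd showed a like pattern, with 9 of 9 C57BL/6J and 7 of 9 A/J hippocampus arrays detecting it and 0 of 17 in the amygdala (interaction -1.18 ± 0.18, adjusted p = 4.56e-04). Lypd1 was 1.96 higher in A/J hippocampus and stood at 0.62 ± 0.16 in amygdala without passing (adjusted p = 0.0101), where A/J ran from 10.63 to 11.72 and C57BL/6J from 10.23 to 11.21 (interaction 1.31 ± 0.22, adjusted p = 0.00164). The low value was thus that of C57BL/6J hippocampus.

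In the other 3 probes the amygdala value lay on the opposite side of 0. Fgf10, a secreted growth factor that acts through Fgfr2, was higher in A/J hippocampus by 1.04 ± 0.18 (8.65 to 9.58, median 9.08, against 7.67 to 8.71, median 7.85, adjusted p = 5.57e-04) and lower in A/J amygdala by 0.79 ± 0.20 (adjusted p = 0.0097), with an interaction of 1.81 ± 0.28 (adjusted p = 4.56e-04). Zfhx3, a homeodomain transcription factor, was lower in A/J hippocampus by 1.23 ± 0.25 (5.36 to 7.01 against 6.31 to 8.05, adjusted p = 0.00319) and at 1.1 ± 0.30 in amygdala (adjusted p = 0.0182), with an interaction of -2.32 ± 0.42 (adjusted p = 0.00573). Krt9, a type I keratin, was lower by 1.08 ± 0.16 in A/J hippocampus (adjusted p = 9.39e-05) and at 0.47 ± 0.17 in amygdala (adjusted p = 0.0808), with an interaction of -1.55 ± 0.23 (adjusted p = 3.76e-04). Cck had values of opposite sign too, -1.26 ± 0.33 in amygdala, but its interaction of 1.97 ± 0.46 did not pass (adjusted p = 0.072), and in the fit of 35 arrays its hippocampus difference did not pass either (adjusted p = 0.321).

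Arrays lay on 10 chips, of which 3 held hippocampus of both strains (4 arrays of each). The IDs of the chips fall into 2 sets by their leading digits, with 5 A/J and 3 C57BL/6J hippocampus arrays in the first and 4 and 6 in the second. All 60 named and called probes kept their sign within each set and on the 3 shared chips. Where the strain ranges do not overlap, any subset of arrays must keep the sign. All 60 were also picked as called on these same arrays, so this count is a description and no test of a batch. For Glo1 the differences were 1.27 and 1.1 in the sets and 1.18 on the shared chips, and for Enpp5 -4.18, -4.52 and -4.25.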

How the data were processed

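Per the paper's methods, the authors extracted bead signals in BeadStudio and took off each array's average negative control signal. The deposited signals are linear intensities with no normalisation between arrays, written with decimal commas, and the detection p-value is 1 minus the deposited detection score. A second deposited table holds the authors' log2 values, made with Lumi by variance stabilisation and robust spline normalisation. Depth is not defined for arrays, and 9 arrays per strain limit the precision.

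Levels were computed with neqc of limma 3.58.1 in R 4.3.3 (offset 16), and the strains were compared with lmFit and eBayes over the 18 hippocampus arrays. Probes detected (p under 0.01) on at least 9 arrays were tested, with Benjamini-Hochberg adjustment and a threshold of 0.01. The interaction came from 1 fit of the 4 groups over 35 arrays. The fit was tested on simulated data with 200 changed probes, and recovered 60% of changes of 1 log2 unit and 93% of 2.

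Probe names are from the platform annotation, with 20984 probes of 1 symbol, 1 of several and 3635 of none, and chromosomes are from RefSeq (GRCm38.p6). Named probes were the 10 largest called differences in each direction with ranges apart among probes detected on 5 or more arrays of each strain, the highest of those detected in 1 strain only, up to 4 called members of each gene list, every tested gene with known strain alleles, probes with an interaction, the 6 genes with the largest gap between probes, and the probes the study sequenced. Markers of each cell type, the lists and the named probes were chosen with earlier results of these data known. Alternatives were other normalisations, filters, chip blocks, covariates and arrays left out. The sequence of 1 probe is not reported here.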

Additional observations from a re-analysis of the deposited data

Results flagged for a closer look

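In 3 of 120 strain groups of the named and called probes, 1 array of 9 lay far from the others by Dixon's test, fewer than the 1 in 20 that chance flags. For Zfp775, C57BL/6J replicate 8 was at 5.82 while the next was at 5.15 and the lowest at 4.73. For Zfp324, C57BL/6J replicate 5 was at 6.22 against 5.73 and 5.27. For the Cldn10 probe with a listed polymorphism, A/J replicate 6 was at 9.73 against 9.01 and 8.37.

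The strain difference differed between hippocampus and amygdala, by the interaction term, in 6 probes. The difference of differences was -1.99 log2 for Arsj, -1.55 for Krt9, 1.81 for Fgf10, -1.18 for Iyd, 1.31 for Lypd1 and -2.32 for Zfhx3. With the authors' log2 values it no longer passed for Zfhx3, Iyd and Lypd1 (adjusted p = 0.0752, 0.0413 and 0.0334), without the detection filter for Zfhx3 (adjusted p = 0.0145), and with median scaling for Krt9, Zfhx3, Iyd and Lypd1 (adjusted p = 0.0119, 0.998, 0.331 and 0.998), where the differences were -1.58, -2.28, -0.97 and 1.32. The authors' log2 values gave smaller differences throughout, at -0.12 for Arsj, -0.08 for Krt9, 0.36 for Fgf10, -0.08 for Iyd, 0.83 for Lypd1 and -0.28 for Zfhx3.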

How the results depend on the processing

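No paired analysis was possible because the labels give no replicate numbers and no animals shared between the groups. The 66 higher and 203 lower probes became 33 and 100 when only the 5277 probes detected on all 18 arrays were tested, and 10 and 55 on the chips with both strains with chip as a block (4 arrays per strain). With median scaling 99 were lower and 48 higher, and the median of all tested probes moved from 0.0293 to 0.202. With the number of detected probes as a covariate 120 were higher and 271 lower. The other alternatives stayed within 1.5 times the main counts. With the authors' log2 values 51 were higher and 170 lower, of which 44 and 162 were among the main calls. Leaving out 1 array gave 56 to 66 higher and 186 to 210 lower. The lower side held 67.3% to 84.6% of the calls under every alternative. The 6 interactions became 3 with median scaling. None of the 60 named and called probes reversed its sign under these alternatives, though all were picked as called on these arrays. Btbd9, not called and near 0, turned positive with the authors' log2 values. Calls were lost for 28 of 60 named probes on the chips with both strains, for 11 with median scaling and for 8 with the authors' log2 values, and for Wfs1, Cck, Vwf and Rpl29 when single arrays were left out (in 15, 10, 14 and 15 of 18 such fits). Of the gene lists, the thalamus list stayed at 7 or 8 of 8 genes below 0 and the immediate early list at 11 to 13 of 13 above 0 over 6 alternatives, but with the authors' log2 values their medians went from -0.888 to -0.496 and from 0.336 to 0.0603. On the chips with both strains the median turned from -0.204 to 0.242 in the dentate gyrus list and from -0.133 to 0.44 in the choroid plexus list, and list medians near 0 turned sign under some alternatives too. Where no array of a strain detected a probe, its fold is only a lower bound.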
